A study of Mus musculus with 5 samples.

Results

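Col4a1, Col4a2, Lama1, Lamb1, Lamc1, Nid1, Hspg2 and Sparc are 8 of the 24411 genes in a table of molecule counts from single cells of the mouse embryonic circulation. They were chosen as genes of the basement membrane, with their levels in these cells already known, so their levels and their tendency to appear in the same cells are given as description. The cells came from wild-type C57BL/6 embryos at embryonic day 10 (E10, 3 batches) and embryonic day 9.5 (E9.5, 2 batches), with no other allele or agent in either group. Per the labels, blood was drawn from the heart, cells lacking the blood cell surface proteins CD45, CD43, CD41 and TER119 were sorted and picked 1 by 1 with a mouth pipette, and a modified STRT-seq protocol tagged each mRNA molecule near its 3′ end with a unique molecular identifier (UMI). Each batch filled 96 wells, and a well was kept as a cell when it held at least 1000 genes and 30000 UMIs. This left 294 of 480 wells, 87, 72 and 63 in E10 replicates 1, 2 and 3 and 26 and 46 in E9.5 replicates 1 and 2. The labels do not say whether batches came from separate litters, so p-values measure the spread between these samples, which may be technical.

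Basement membranes are thin sheets of matrix beneath epithelia, around vessels, muscle and nerve, and in rodent embryos around the yolk cavity as Reichert's membrane, which parietal endoderm cells secrete in bulk. Laminin trimers of an alpha, a beta and a gamma chain assemble on the cell surface into the founding network, and a crosslinked network of collagen IV gives it strength. Nidogen and the heparan sulfate proteoglycan perlecan tie both networks together, and Sparc binds collagens and is known from fly and worm to be needed for normal deposition of collagen IV.

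The collagen IV chain genes sit head to head. The start of that pair is shown because its 2 members had the highest rank correlation of any pair over all these cells. Within the batches other than E10 replicate 2, a different pair had the highest mean value. In the GENCODE vM21 annotation of GRCm38, Col4a1 (ENSMUSG00000031502.11) covers chr8:11198423-11312826 on the minus strand and Col4a2 (ENSMUSG00000031503.13) covers chr8:11312805-11449287 on the plus strand. Their first exons overlap by 22 bases, which stand in capitals in this stretch of chr8:11312801-11312830, plus strand, credited to RefSeq on GRCm38.
Col4a1/Col4a2 start: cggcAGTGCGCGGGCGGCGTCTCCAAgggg
The shared stretch holds the letters GGGCGG, the GC box that Sp1-type factors are known to bind. RefSeq windows of 250 bases before to 50 after the start were matched for 6 of the 8 genes, and the windows of Col4a1 and Col4a2 share 78 bases. These 78 bases also held 1 match of CCCTCCCC, which both windows therefore share. It is the core of the CTC box described for the promoter that this pair of genes shares in mammals. The Nid1 window held CCCTCCCC as well. On both strands, GGGCGG was found in 35.7% of 32851 such windows, CCAAT in 37.4% and CCCTCCCC in 10.8%. Matches of different motifs may overlap, and a match is a description of letters, not of a bound site.

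Upstream sequence is also shown for Lamb1, Nid1 and Hspg2, a laminin chain and the linkers, because Hspg2 parted from the other genes in the cells with the highest levels. Each line ends at the base before the first annotated exon, on the plus strand of GRCm38, at chr12:31265084-31265233, chr13:13437401-13437550 and chr4:137468619-137468768, from RefSeq. Capitals mark GGGCGG and CCAAT on either strand.
Lamb1: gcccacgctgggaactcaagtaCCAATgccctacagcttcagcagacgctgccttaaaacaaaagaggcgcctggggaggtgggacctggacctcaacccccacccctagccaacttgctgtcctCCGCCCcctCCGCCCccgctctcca
Nid1: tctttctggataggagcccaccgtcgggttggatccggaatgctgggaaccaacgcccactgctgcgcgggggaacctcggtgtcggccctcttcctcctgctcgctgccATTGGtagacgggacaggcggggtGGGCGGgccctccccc
Hspg2: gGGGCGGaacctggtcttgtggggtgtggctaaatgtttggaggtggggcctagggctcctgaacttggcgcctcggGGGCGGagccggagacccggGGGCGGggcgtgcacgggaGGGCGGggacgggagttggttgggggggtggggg
The Hspg2 stretch held GGGCGG 4 times and CCAAT 0 times, that of Lamb1 2 times and 1 time, and that of Nid1 1 time each. The whole Sparc window held none of the 3 motifs. Lama1 (chr17:67697259-67822647) and Lamc1 (chr1:153218922-153332786) are named only.

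Kept cells held 104791537 UMIs in all, with a median of 308924 and a range of 31294 to 1407021 per cell, and the fullest well left out held 28759. E10 replicate 2 stood apart from the other batches in Col4a1, Col4a2 and Lama1 and in haemoglobin. The median share of haemoglobin genes per cell was 0.0337%, 6.32% and 0.972% in E10 replicates 1, 2 and 3 and 0.664% and 1.73% in E9.5 replicates 1 and 2, although the sort had excluded TER119. Ptprc, the gene of CD45, had 0 UMIs. Wells of the same number carry the same cell barcode in different batches, and 90 of the 96 well numbers were kept in at least 2 batches. In 389 such pairs, 17 wells had the well of the same number as their best match, none of these 17 held under 10% of its partner's UMIs, and no 2 kept wells were identical. The number of such matches among unrelated wells was not computed, so whether wells of the same number shared molecules was not tested.

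Type IV collagen differed widely between batches of the same stage. A UMI of Col4a1 was seen in 96.6%, 100% and 77.8% of the cells of E10 replicates 1, 2 and 3, against 88.5% and 41.3% in E9.5 replicates 1 and 2. In E10 replicate 2 it was also seen in all 23 erythroid-like cells, so a UMI there is not counted as expression. Levels are given as CPM, a cell's or a batch's UMIs of a gene scaled to 1000000 UMIs, which are not scaled to transcript length, so genes are not ranked against each other by level. Over all cells of a batch summed, Col4a1, the first chain of the main collagen IV trimer, stood at 124, 566 and 58.2 CPM in E10 replicates 1, 2 and 3, against 95.6 and 11.7 CPM in E9.5 replicates 1 and 2. E10 replicate 2 was the highest and E9.5 replicate 2 the lowest, and the stages overlapped, since E9.5 replicate 1 lay above E10 replicate 3. In such sums, fewer cells of a type and less RNA per cell cannot be told apart. The second chain, Col4a2, stood at 65.0, 338 and 22.7 CPM in the E10 batches and at 63.1 and 6.44 CPM in the E9.5 batches, in the same order of batches and with the same overlap. The median cell held 101, 242 and 6.28 CPM of Col4a1 in the E10 batches, against 33.2 and 0 CPM in the E9.5 batches. A UMI of Col4a1 was seen in 84.0% of the 294 cells (95% exact binomial interval 79.3 to 88.0, counting error only), and in 58.2% once each cell was thinned to 30000 UMIs.

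**Figure D1:**
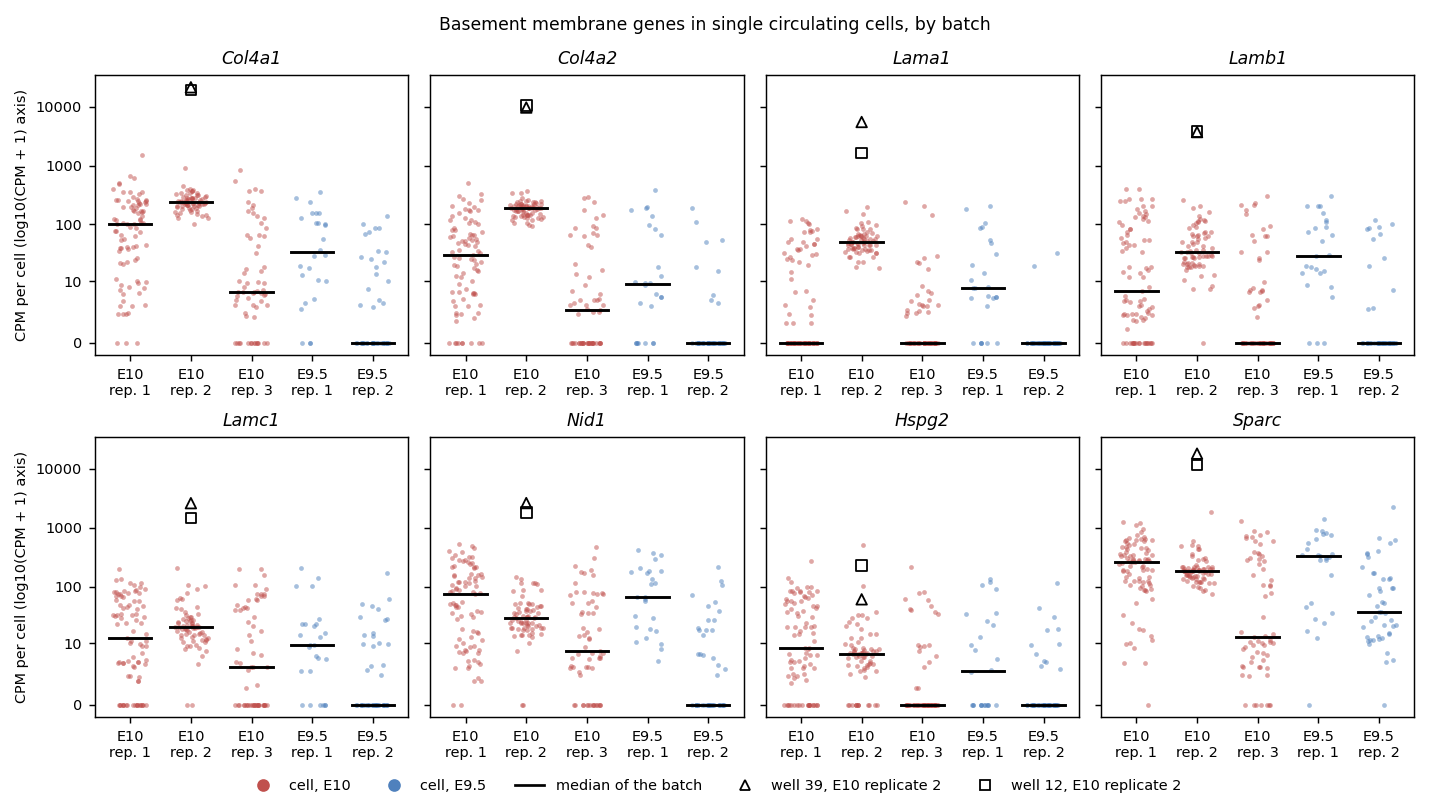
CPM of each gene in each of the 294 kept cells, on a log10(CPM + 1) axis, by batch, with E10 batches at the left and E9.5 batches at the right of each panel. Points are cells, bars are batch medians, and the triangle and square are wells 39 and 12 of E10 replicate 2, which lie above all other cells for every gene but Hspg2. In E10 replicate 2 the other cells form a narrow band for Col4a1, Col4a2 and Lama1.

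The sums of the laminin chains were also highest in E10 replicate 2, while the order of the other batches differed from that of collagen IV for Lama1 and Lamb1. Lama1, the alpha chain of laminin-111, the early embryonic form, stood at 20.4, 124 and 7.83 CPM in the sums of E10 replicates 1, 2 and 3, against 44.0 and 0.597 CPM in E9.5 replicates 1 and 2. In E9.5 replicate 2 only 2 of 46 cells had a UMI of Lama1 (4.35%, interval 0.531 to 14.8), while in E10 replicate 2 all 72 cells did. Lamb1, its beta chain, stood at 55.1, 110 and 23.7 CPM in the E10 batches and at 76.2 and 10.02 CPM in the E9.5 batches. For both chains E9.5 replicate 1 lay above E10 replicates 1 and 3, so the stages overlapped. Lamc1, the gamma chain shared by most laminins, varied least of the collagen and laminin genes between batches, with 37.4, 61.7 and 26.9 CPM in the E10 batches and 28.4 and 11.3 CPM in the E9.5 batches, and E9.5 replicate 1 lay just above E10 replicate 3. Over all cells, Lama1 had a UMI in 54.1% (34.01% thinned), Lamb1 in 68.7% (41.8% thinned) and Lamc1 in 72.8% (38.8% thinned).

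The linkers did not peak in E10 replicate 2. Nid1, nidogen 1, stood at 102, 73.7 and 37.6 CPM in E10 replicates 1, 2 and 3, against 96.5 and 17.3 CPM in E9.5 replicates 1 and 2, so E10 replicate 1 was highest and the stages overlapped. Hspg2, perlecan, stood at 32.9, 11.5 and 8.42 CPM in the E10 batches and at 29.4 and 3.94 CPM in the E9.5 batches, again highest in E10 replicate 1, with E9.5 replicate 1 above E10 replicates 2 and 3. Nid1 had a UMI in 85.0% of cells (51.4% thinned) and Hspg2 in 58.5% (23.5% thinned). Sparc was found in nearly every cell, 284 of 294 (96.6%, interval 93.8 to 98.4), and in 79.6% after thinning. Its batch sums were 297, 486 and 130 CPM at E10, against 359 and 110 CPM at E9.5, with E9.5 replicate 1 above E10 replicates 1 and 3.

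The highest values of 7 of the 8 genes came from 2 wells of E10 replicate 2, numbers 39 and 12, picked out after their values were seen. Well 39 held 21343 CPM of Col4a1 (5665 UMIs) and well 12 held 19246 CPM (2359 UMIs), and the next-highest of the 294 cells, in E10 replicate 1, held 1509 CPM. For Col4a2 the wells held 9675 and 10566 CPM, against 509 CPM in the highest other cell. The lower of these wells thus held 12.8 times the Col4a1 and 19.0 times the Col4a2 of the highest other cell. The 3 laminin chains went with it. Lama1 stood at 5501 CPM in well 39 and 1632 CPM in well 12 (highest other cell 242), Lamb1 at 3711 and 3802 CPM (403), and Lamc1 at 2618 and 1469 CPM (206). Nid1 stood at 2630 and 1803 CPM (522) and Sparc at 18122 and 11675 CPM (2278). Hspg2 was the exception, at 60.3 CPM from 16 UMIs in well 39 and 228 CPM from 28 UMIs in well 12, below the 502 CPM of another cell of that batch. All 8 genes together took 6.37% of the UMIs of well 39 and 5.04% of those of well 12, against a median of 0.0573% and a maximum of 0.289% in the other cells.

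**Figure D2:**
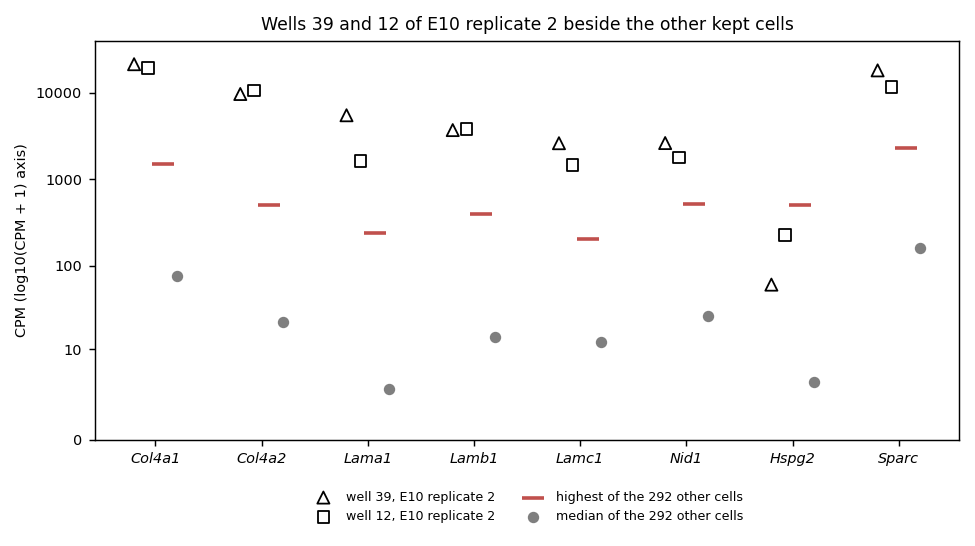
CPM of the 8 genes in wells 39 (triangles) and 12 (squares) of E10 replicate 2, beside the highest (bars) and the median (dots) of the 292 other kept cells, on a log10(CPM + 1) axis. The wells lie above the highest other cell for 7 of the 8 genes and below it for Hspg2.

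These wells weighed on the batch sums. They held 1.599% of the UMIs of E10 replicate 2 but 58.5% of its Col4a1 UMIs, 47.2% of Col4a2, 55.1% of Lama1, 54.5% of Lamb1, 58.4% of Lamc1, 51.4% of Nid1, 53.0% of Sparc and 15.8% of Hspg2. Without them the sums of that batch were 239 CPM for Col4a1, 181 for Col4a2, 56.7 for Lama1, 50.7 for Lamb1, 26.1 for Lamc1, 36.4 for Nid1, 9.84 for Hspg2 and 232 for Sparc. E10 replicate 2 was then still the highest batch for Col4a1, Col4a2 and Lama1, and no longer for Lamb1, Lamc1 or Sparc.

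Beside the basement membrane genes, the wells shared a set of marker and secretory genes. Of 9 parietal endoderm markers outside the 8 genes, 7 stood at 20 CPM or more and above the 95th percentile of the other cells in both wells, against 0.997% of 17649 genes with a UMI. They were the transcription factor genes Sox7, Sox17, Gata4 and Gata6, the thrombomodulin gene Thbd, the parathyroid hormone receptor gene Pth1r and the activin antagonist gene Fst. Sox7 stood at 328 and 400 CPM in wells 39 and 12, against at most 9.82 CPM elsewhere, and Pth1r at 2310 and 759 CPM, against at most 613. Plat reached 60.3 and 40.8 CPM without passing that percentile, and Krt19 was at 0 in both. The epithelial keratin genes Krt8 and Krt18 and Epcam passed, 3 of 8 epithelial markers, while Cdh1 was at 0. All 9 visceral endoderm and yolk sac markers and all 7 trophoblast markers were at 0, and 1 of 10 endothelial markers passed, Cdh5 at 45.2 and 32.6 CPM, with 8 at 0. Of 10 erythroid markers 8 stood at 20 CPM or more, with Hbb-y at 20077 and 25251 CPM, but none passed the percentile of the other cells. The wells are 2 cells of 1 batch, and no cell type name was given to them.

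Genes that fold and modify collagen were also high in these wells, while few other matrix genes were. Of 27 collagen folding and modification genes, 10 passed the same marks, among them the collagen chaperone gene Serpinh1 at 8277 and 4259 CPM (highest other cell 2447) and the prolyl hydroxylase genes P4ha1 at 769 and 857 CPM and P4ha2 at 550 and 400 CPM. The lysyl hydroxylase genes Plod2 and Plod3, P4hb, P3h1, P3h4, Colgalt1 and Fkbp9 were the others. Of 30 further basement membrane components 1 passed, the tubulointerstitial nephritis antigen-like gene Tinagl1 at 147 and 302 CPM, and 15 were at 0, among them Col4a3, Col4a4, Lama2 and Lama4. Of 19 receptors 1 passed, the laminin receptor gene Itga6 at 633 and 367 CPM, and of 16 matrix proteases and inhibitors none did. Over all genes, 39 were higher in both wells than in any other cell. By the ratio to the highest other cell, the top 20 held 7 of the 8 genes described here, and also Hs3st1, a heparan sulfate sulfotransferase gene, at 422 and 506 CPM, Pdpn, the podoplanin gene, at 671 and 661 CPM, and Foxa2, an endoderm regulator, at 426 and 645 CPM.

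Outside these wells, E10 replicate 2 carried collagen IV in blood-like cells as well as in the others. In its 40 cells that were not blood-like, Col4a1 had a median of 261 CPM and a range of 102 to 900, and in its 23 erythroid-like cells, a class that is not known to make basement membrane, a median of 244 CPM and a range of 164 to 339. Most of those 40 cells belonged to cluster 0, described below, which got no name although it passed the naming marks for erythroid markers. The 7 haematopoietic progenitor-like cells of that batch were lower, with medians of 157 CPM of Col4a1 (highest 242) and 132 CPM of Col4a2. Erythroid-like cells were also close to the cells that were not blood-like for Col4a2, with medians of 189 CPM in the cells that were not blood-like and 190 CPM in the erythroid-like cells, for Lama1, with 52.1 and 49.5 CPM, and for Sparc, with 193 and 183 CPM. The median depth was 272151 UMIs in the cells that were not blood-like and 363756 in the erythroid-like cells. In the other batches erythroid-like cells were low: in E10 replicate 3, 11 such cells had a median of 4.71 CPM of Col4a1 and a maximum of 9.16, and in E9.5 replicate 2, 10 such cells had a median of 0 and a maximum of 3.70. Levels up to those of the erythroid-like cells of the same batch are therefore not counted as expression here, and where they came from was not tested. Above the highest erythroid-like cell of their batch stood 9 of 40 other cells in E10 replicate 2 for Col4a1 (22.5%, interval 10.8 to 38.5), 27 of 49 in E10 replicate 3 (55.1%, 40.2 to 69.3) and 15 of 32 in E9.5 replicate 2 (46.9%, 29.1 to 65.3). Those 15 were all of the 32 cells with any UMI of Col4a1, so passing there is the same as detection.

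**Figure D3:**
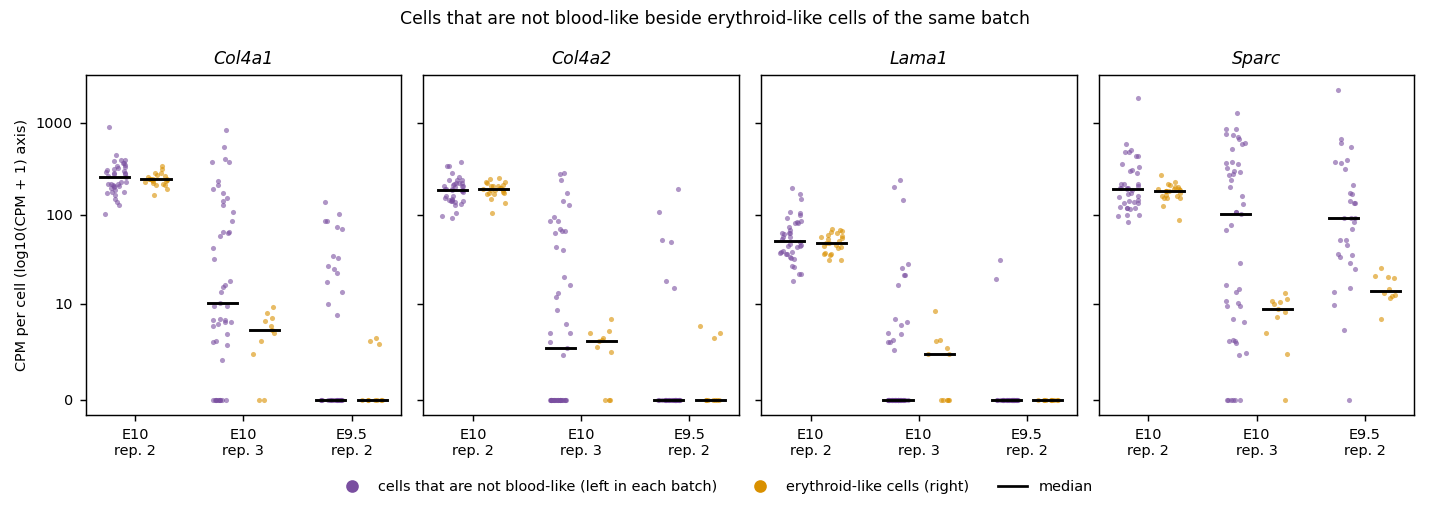
CPM per cell of Col4a1, Col4a2, Lama1 and Sparc on a log10(CPM + 1) axis in cells that were not blood-like (left in each pair) and erythroid-like cells (right), for the 3 batches with at least 10 erythroid-like cells, without wells 39 and 12. Bars are medians. In E10 replicate 2 the medians of both classes lie close together, while in E10 replicate 3 and E9.5 replicate 2 the erythroid-like cells lie at the bottom of the range.

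The ratios between the genes were also compared. Per 100 UMIs of Col4a1, wells 39 and 12 held 48.1 of Col4a2, 20.7 of Lama1, 18.1 of Lamb1, 10.9 of Lamc1, 11.5 of Nid1, 0.548 of Hspg2 and 77.8 of Sparc. The erythroid-like cells of the same batch held 78.0 of Col4a2, 20.8 of Lama1, 14.8 of Lamb1, 8.10 of Lamc1, 15.2 of Nid1, 2.64 of Hspg2 and 75.9 of Sparc. These ratios were close for Lama1 and Sparc and differed for Col4a2 and Hspg2. In cells of E10 replicate 1 that were not blood-like the same ratios were 52.4 for Col4a2, 16.5 for Lama1, 44.6 for Lamb1, 30.2 for Lamc1, 81.2 for Nid1, 26.6 for Hspg2 and 240 for Sparc, so relative to Col4a1 the beta and gamma laminin chains, the linkers and Sparc were higher there.

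Where erythroid-like cells gave a low floor, other cells were seen above it for each of the 8 genes. In E10 replicate 3, Sparc passed the highest erythroid-like cell in 31 of 49 cells (63.3%, interval 48.3 to 76.6), Lamb1 in 26 (53.1%), Col4a2 in 20 (40.8%), Nid1 in 16 (32.7%), Lamc1 and Hspg2 in 9 each (18.4%) and Lama1 in 8 (16.3%). In E9.5 replicate 2 the share of 32 cells was 81.2% for Sparc (63.6 to 92.8), 28.1% for Lamb1 and for Hspg2, 18.8% for Col4a2, 12.5% for Lamc1 and for Nid1 and 6.25% for Lama1. For Col4a1, Col4a2, Lama1 and Lamb1 in that batch, and Lamb1 in E10 replicate 3, every such cell with a UMI passed. There, passing the floor is the same as detection, which depends on depth. Median depths in E9.5 replicate 2 were 114967 UMIs in these cells and 260528 in the erythroid-like cells. The floor was not the same for each gene. In E10 replicate 3 the highest value among 11 erythroid-like cells was 68.7 CPM for Lamc1 (upper quartile 9.38) and 51.8 CPM for Nid1 (upper quartile 17.3). Shares of cells with any UMI did not separate the classes in that batch, at 79.6% of the cells that were not blood-like and 81.8% of the erythroid-like cells for Col4a1, with median depths of 242164 and 445741 UMIs, whereas after thinning they were 42.9% and 9.09%. In E10 replicate 1 and E9.5 replicate 1 there was 1 erythroid-like cell each, so no floor was set there.

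Clusters of cells built without the 8 genes and without the related lists showed which cells carried most. The clusters were made from the same cells, and most of them lay mainly in 1 or a few batches, so no test was made and, for those, cell class and batch cannot be told apart. Of 12 clusters, the Sox10-led neural or neural crest-like cluster 9, of 17 cells from all 5 batches, had the highest median of Sparc, 551 CPM, with Nid1 at 66.5 and Lamb1 at 50.9 CPM. The other neural or neural crest-like cluster, 4, led by the catecholamine gene Dbh and the neurofilament gene Nefm (25 cells, 15 from E10 replicate 3), was low throughout, with medians of 29.4 CPM of Sparc, 2.9 of Col4a1 and 0 of Lama1, Lamb1 and Col4a2. In E10 replicate 3, where both were present, cluster 9 (4 cells) had medians of 508 CPM of Sparc and 136 CPM of Lamc1, and cluster 4 had 6.6 and 0 CPM.

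Among the remaining clusters, cluster 3 (29 cells, 26 from E10 replicate 1), led by the transcription factor gene Ebf2 and by Tgfb2, had the highest median of Nid1, 148 CPM, with Col4a1 at 125 CPM and Lama1 at 0. Cluster 2, led by the smooth muscle genes Acta2 and Tagln and the endothelial gene Cldn5 (30 cells, 17 from E9.5 replicate 1), had 144 CPM of Col4a1 and 386 CPM of Sparc. Leading genes were ranked by mean CPM, which a few cells can raise. No smooth muscle or endothelial marker passed the naming marks, which use medians, in cluster 2. The pluripotent or germ cell-like cluster 6, led by Dppa5a (22 cells, all from E10 replicate 1), had the highest medians of Lamc1, 59.0 CPM, and Hspg2, 35.4 CPM, and all of its cells had a UMI of Col4a1, Lamb1, Lamc1, Nid1 and Sparc. Its name rests on its leading genes. It also passed mesenchymal markers, among them Prrx1, Pdgfra, Col1a1 and Twist1, while the germ cell markers Pou5f1 and Dppa3 did not pass. The clusters named mesenchymal-like were low in Sparc or in laminin: cluster 8 (19 cells) had 10.2 CPM of Sparc beside 42.7 CPM of Col4a1, and cluster 1 (33 cells, 23 from E9.5 replicate 2) had 92.8 CPM of Sparc and 0 of each of the laminin chains. This does not hold for mesenchymal markers at large. Clusters 2, 3, 6 and 10 also passed the naming marks for such markers, among them Col3a1 and Twist1, without getting that name. Cluster 0, unnamed and led by Car12 and Col4a1, held 36 cells of E10 replicate 2, wells 39 and 12 among them, and had a median of 243 CPM of Col4a1, as did the erythroid-like cluster 5, 23 of whose 24 cells came from the same batch. The place of Col4a1 among the leading genes of cluster 0 rests on a mean of 1184 CPM that includes wells 39 and 12. Cluster 0 also passed the naming marks for erythroid markers, among them Hbb-y, Alas2 and Gata1, without getting that name.

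**Figure D4:**
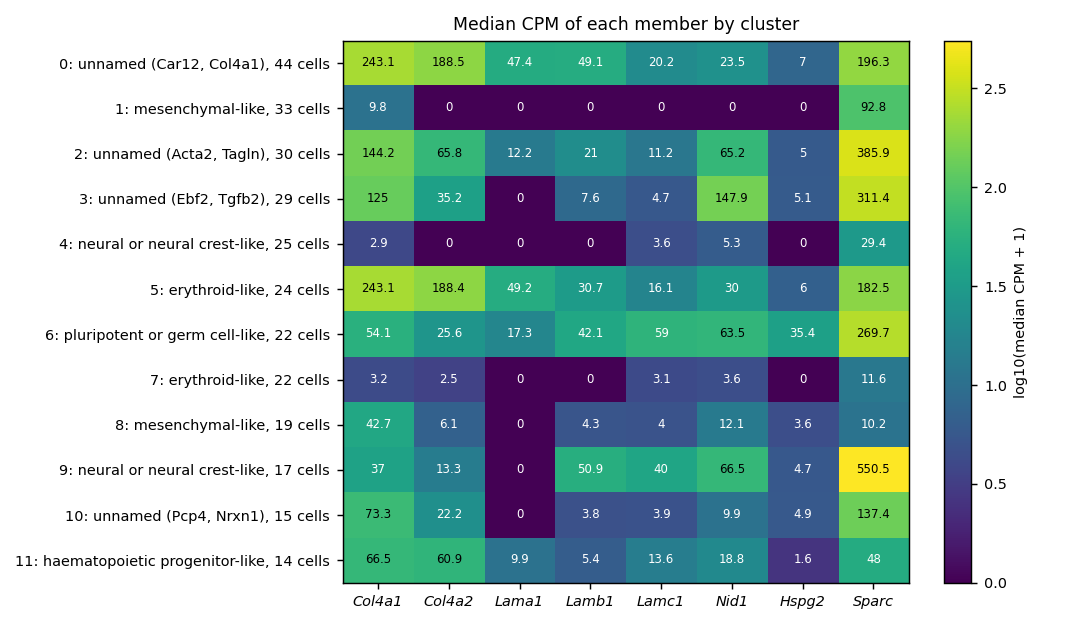
Median CPM of each gene (columns) in each of the 12 clusters (rows), with the value printed in each box and the colour on a log10(median CPM + 1) scale. Clusters 0 and 5, which are mostly cells of E10 replicate 2, share the highest Col4a1, Col4a2 and Lama1 medians, cluster 9 has the highest Sparc and cluster 6 the highest Lamc1 and Hspg2.

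The number of the 8 genes seen in a cell differed between batches and fell when cells were thinned. The median cell had a UMI of 7 of them, and all 8 were found in 93 cells, of which 24, 57 and 3 lay in E10 replicates 1, 2 and 3 and 9 and 0 in E9.5 replicates 1 and 2. In E10 replicate 2 the 23 erythroid-like cells also had a UMI of 7 of the genes in 100% of cells and of Hspg2 in 91.3%, so this count is not read as expression of all 8 there. After thinning to 30000 UMIs the median over all cells was 4 genes and all 8 were found in 8 cells. The batch medians at that equal depth were 4, 6 and 2 genes in E10 replicates 1, 2 and 3 and 3 and 2 genes in E9.5 replicates 1 and 2. Across the 294 cells, which share library, depth and batch, Spearman's rho was above 0 for all 28 pairs, with a median of 0.35 and a range of 0.20 (Lama1 with Hspg2) to 0.65 (Col4a1 with Col4a2). Within batches the mean rho was lower, with a median of 0.19 over pairs and 0.30 for Col4a1 with Col4a2, so part of the pooled relation lay between batches. Col4a1 and Col4a2 had a rho of 0.20, 0.55 and 0.37 within E10 replicates 1, 2 and 3 and of 0.33 and 0.05 within E9.5 replicates 1 and 2. Without wells 39 and 12 it was 0.51 within E10 replicate 2. As a mean over the 4 other batches this pair was not the highest, and a different pair reached 0.315. Over all 5 batches, the lowest within-batch means involved Lamc1, at 0.01 with Col4a1 and 0.03 with Col4a2, whereas Lamc1 with Lama1 was at 0.26.

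**Figure D5:**
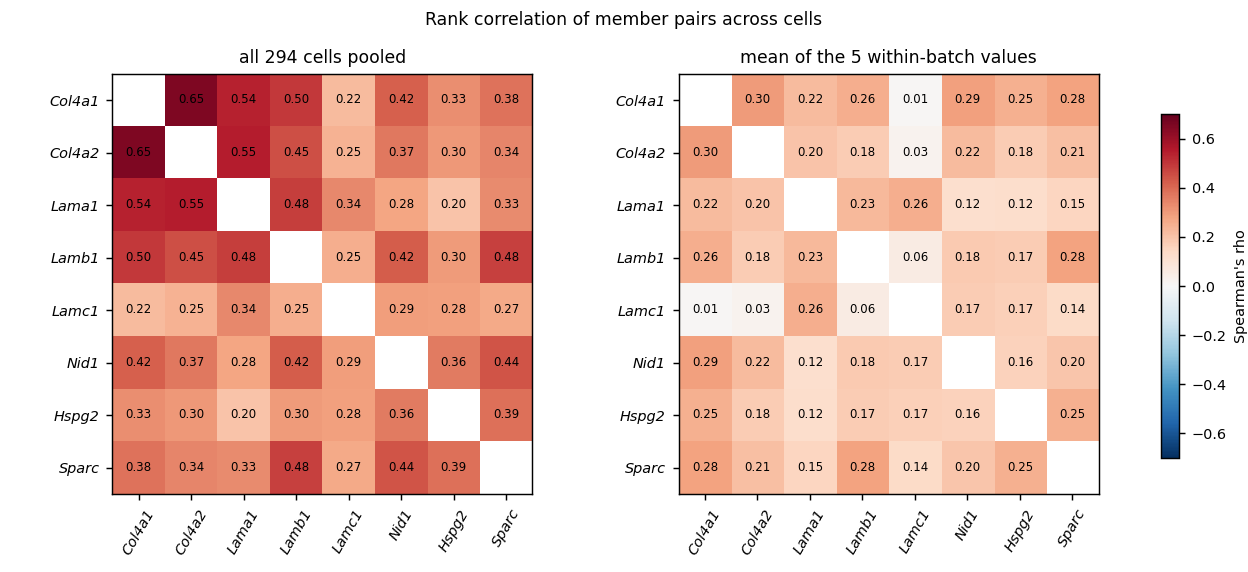
Spearman's rho for each pair of the 8 genes across cells, for all 294 cells pooled (left) and as the mean of the 5 within-batch values (right), with the value printed in each box. All pooled values lie above 0, the Col4a1 and Col4a2 pair is highest in both panels, and the within-batch values are lower. As a mean over the 4 batches other than E10 replicate 2, not drawn here, that pair is not the highest.

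Among 9694 other genes with a value in every batch, the 10 whose thinned levels went most closely with the mean of the 8 genes, by the mean of the 5 within-batch rhos, were led by the calponin gene Cnn2 at 0.42 and the intermediate filament gene Vim at 0.41 and also held the thymosin gene Tmsb10 at 0.37, Dbi, Serpinh1, Tpm4, Myh10, Sfrp1 and Marcks, down to 0.34. The median over all these genes was 0.03 and the 99th percentile 0.25. Serpinh1, the chaperone of collagen, was at 0.36, with 0.34, 0.35 and 0.44 in E10 replicates 1, 2 and 3 and 0.08 and 0.58 in E9.5 replicates 1 and 2. Of the members themselves, Lamb1 at 0.32 and Sparc at 0.31 went most closely with the mean of the other 7, and Lamc1 at 0.12 least.

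Stage was compared over batch sums with edgeR's quasi-likelihood test, fitted on all genes with Benjamini-Hochberg adjustment at 0.05, as E10 over E9.5. None of the 8 genes was called, and none of 14103 genes tested was (0.0%), so this count says nothing particular about the 8. At an unadjusted p under 0.05 edgeR had 1119 genes (7.93%) and none of the 8, and DESeq2 called 86 genes (0.61%) and none of the 8. Col4a1 averaged 249 ± 276 CPM at E10 and 53.6 ± 59.3 CPM at E9.5 (SD, n = 3 and 2 batches), a log2 fold change of 2.33 (SE 1.21, edgeR adjusted p = 0.637). That of Col4a2 was 2.16 (SE 1.33, edgeR adjusted p = 0.653) and that of Lama1 1.34 (SE 1.59, edgeR adjusted p = 0.831). Lamb1 was at 0.60 (SE 0.89), Lamc1 at 1.08 (SE 0.56), Nid1 at 0.29 (SE 0.66), Hspg2 at 0.00 (SE 0.84) and Sparc at 0.39 (SE 0.65) on the same scale, with edgeR adjusted p-values of 0.636 (Lamc1) to 1.00 (Hspg2). The median over all genes was 0.09.

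The values depended on single wells and batches. Without wells 39 and 12 the log2 fold change was 1.45 for Col4a1, 1.46 for Col4a2, 0.46 for Lama1, 0.54 for Lamc1, 0.001 for Lamb1, -0.04 for Nid1, -0.05 for Hspg2 and -0.14 for Sparc, none of them called. Leaving out E10 replicate 2 as a whole gave 0.62 for Col4a1, 0.19 for Col4a2 and -0.78 for Lama1, and leaving out E9.5 replicate 1 gave 4.30 for Col4a1, 4.36 for Col4a2 and 6.31 for Lama1. The share of cells with a UMI after thinning did not separate the stages either. For Col4a1 it averaged 67.2 ± 32.5% at E10 and 29.0 ± 13.4% at E9.5 (SD, n = 3 and 2, exact two-sided permutation p = 0.3), and for Sparc 80.9 ± 22.5% and 74.7 ± 19.5% (exact permutation p = 0.7). Over the 24 comparisons of share and median level for the 8 genes, raw exact p-values ran from 0.3 to 1.0, where 10 splits of the batches allow none below 0.1.

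Related genes were taken from 4 lists chosen with earlier results of these data known. No gene of them was called by edgeR, of 24 tested basement membrane components, 18 receptors, 27 collagen folding genes and 15 proteases and inhibitors. Their median log2 fold changes were 0.41, 0.16, 0.07 and 0.35 in that order, beside 0.09 over all genes. At an unadjusted p under 0.05, which 7.93% of all genes passed, 4 of the components were higher at E10, Agrn, Egflam, Lama5 and Npnt, with Agrn (agrin) at 65.6, 24.0 and 53.4 CPM in E10 replicates 1, 2 and 3 and 22.7 and 12.4 CPM in E9.5 replicates 1 and 2, without overlap (edgeR adjusted p = 0.616). Lama5, another laminin alpha chain, stood at 17.1, 10.4 and 4.61 CPM in the E10 batches, against 0 and 0.477 CPM in the E9.5 batches (edgeR adjusted p = 0.616). The folding genes P4ha1 and Sec23a were higher at E10 and Ppib lower at that mark, and Spock1 and Spock2 were higher among the proteases and inhibitors, all at an edgeR adjusted p of 0.616. DESeq2, which called 0.61% of all genes, called 2 list genes, Lama5 with a log2 fold change of 5.21 (SE 1.21, DESeq2 adjusted p = 0.00865) and Ppib, the cyclophilin B gene, with -2.48 (SE 0.59, DESeq2 adjusted p = 0.0111). Of the receptors with the highest mean level, Gpc3 averaged 469 CPM over cells, Itgb1, the beta subunit of most matrix integrins, 140 CPM, and Gpc6 93.9 CPM, with log2 fold changes of -0.49, -0.67 and -0.41, none called. Itgb1 had a UMI in 98.3% of cells, beside 96.6% for Sparc.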

How the data were processed

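The deposited table holds UMI counts of 480 wells, with 24411 gene rows and 95 rows of spike-ins, made by the authors with CASAVA 1.8, TopHat2 2.0.12 on mm10 and HTSeq (no version given), per the submitters' processing notes. The strand setting is not given in the sources used here, so Col4a1 and Col4a2, which overlap at their starts, cannot be separated by strand there. That overlap lies at the opposite end of each gene from the one near which the protocol tags molecules. Columns were matched to samples by the batch number in their names. The barcode list was not used. The 8 genes and all gene lists were chosen with earlier results of these data known.

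Spike-ins were dropped and CPM, log2 values and sums per batch were computed here (Python 3.11.15, pandas 2.3.3, scipy 1.17.1). Wells below 1000 genes or 30000 UMIs were left out, and the depth of the rest limits precision as given by the intervals. Cells were clustered with scanpy 1.11.5 and leidenalg 0.10.2 (2000 variable genes, 20 principal components, 15 neighbours, resolution 1.0, seed 0). Left out of the clustering were 221 genes in all: the 8 genes, the related lists, and haemoglobin, ribosomal protein and sex-linked genes. A name needed 3 or more of its markers at medians of 20 CPM and 2-fold those elsewhere, and leading genes that did not favour a different name. The 8 genes were not counted among the markers but were counted among the leading genes. In cluster 0, Lama1 and Lamb1 counted in this way for parietal endoderm beside Gata4, and Tnnt2 and Actc1 counted for muscle. Cells of clusters without a blood name were classed as not blood-like, so that class is not wholly independent of the 8 genes. Names are rebuilt and can differ from the study's. No doublet caller was run, since cells were picked by hand. Stage tests used edgeR 4.0.16 (filterByExpr, TMM) under R 4.3.3, tested on simulated data, with DESeq2 1.42.0 and limma 3.58.1 as alternatives. An SE given with an edgeR value was derived from the test, as the absolute log2 fold change over the square root of the F statistic. Those given with DESeq2 values are its own standard errors. Each batch holds 1 stage, so batch could not be a term. Named genes are the 8, the 3 of highest mean CPM or those called in each list, and the 10 of highest mean within-batch rho among genes found in at least 25% of cells. Of these 10, 1 is not reported here. Genes named for wells 39 and 12, and list genes named for an unadjusted p, were chosen after their values were seen.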

Additional observations from a re-analysis of the deposited data

How the results depend on the processing

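No paired analysis was possible because the batch numbers 1 to 5 do not repeat between stages. Of the values computed under alternatives, 143 kept direction and side of the threshold or stayed within the spread, 16 changed sign and 16 moved. No gene was called by edgeR under any alternative or without any batch, and DESeq2 called 86. Without each batch in turn, log2 fold changes ranged from 0.62 to 4.30 for Col4a1, 0.19 to 4.36 for Col4a2, -0.78 to 6.31 for Lama1, -0.27 to 2.49 for Lamb1, 0.53 to 1.71 for Lamc1, -0.44 to 1.797 for Nid1, -0.79 to 1.87 for Hspg2 and -0.31 to 1.29 for Sparc. Leaving out an E9.5 batch leaves 1, assumed to vary like the others. Sign changes came for Lama1 (-0.78), Lamb1 (-0.27) and Sparc (-0.31) without E10 replicate 2, for Lamb1 (-0.20), Nid1 (-0.44), Hspg2 (-0.79) and Sparc (-0.17) without E9.5 replicate 2, and for Hspg2 (-0.64) without E10 replicate 1. Hspg2, at 0.003 as reported, was at -0.0525 with median-of-ratios size factors, -0.0531 with DESeq2 and -0.13 without cells with Dppa5a at 100 CPM or more. Without wells 12 and 39, an alternative chosen after seeing the data, Nid1 was at -0.04, Hspg2 at -0.05 and Sparc at -0.14; without blood-like clusters and these wells, also chosen after seeing the data, Hspg2 was at -0.05 and Sparc at -0.24.

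The median rho of the 28 pairs was 0.225 in thinned cells, 0.191 within batches, 0.176 within batches without the wells, and 0.273 to 0.42 without each batch. For Col4a1 with Col4a2 it was 0.299 within batches, 0.291 there without the wells, and 0.47 to 0.748 without each batch. Thinning gave a UMI in 58.2% of cells for Col4a1, 38.8% for Lamc1, 51.4% for Nid1, 23.5% for Hspg2 and 79.6% for Sparc, and a median of 4 of the 8 genes per cell. At 3 UMIs or more, Sparc was found in 87.8% of cells and the median was 5 of the 8 genes. The cause of these changes was not tested. Wells kept at 5000 UMIs instead numbered 327.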

Other observations

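Markers of other cell types differed between the batches in which the basement membrane genes were described. Summed over 10 erythroid markers, E10 replicates 1, 2 and 3 held 3447, 96293 and 61269 CPM, against 13201 and 51855 CPM in E9.5 replicates 1 and 2. The 10 endothelial markers summed to 44.0, 23.9 and 20.8 CPM in the E10 batches, against 825 and 16.9 CPM in the E9.5 batches, so E9.5 replicate 1 stood apart. The 9 parietal endoderm markers outside the 8 genes summed to 175, 144 and 83.8 CPM in the E10 batches, against 162 and 63.7 CPM in the E9.5 batches, and E10 replicate 2 was at 77.9 CPM without wells 39 and 12.

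The spread of Col4a1 between cells also differed. The upper quartile was 1.40 times the lower in E10 replicate 2 without the wells, against 10.4 and 32.4 times in E10 replicates 1 and 3 and 12.3 times in E9.5 replicate 1.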
